A study of Mus musculus with 9 samples.

Results

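The 9 genes of cytochrome c oxidase described here through myocardial infarction are the muscle forms Cox6a2, Cox7a1 and Cox8b, their general counterparts Cox6a1, Cox7a2 and Cox8a, the general and oxygen-regulated forms of subunit 4, Cox4i1 and Cox4i2, and the related gene Cox7a2l. They were taken by symbol from the deposited count matrix, which held all 9 of them among 24964 symbols. The matrix came from bulk RNA sequencing of the hearts of 9 male C57BL/6JR mice, 8 weeks old, in 3 groups of 3. In the groups MI 7 d and MI 28 d the left anterior descending branch of the coronary arteries was tied off under isoflurane, and the hearts were taken 7 d or 28 d later. Sham mice went through the same chest surgery without the ligation, and no source used here gives the time at which their hearts were taken. The labels name the tissue only as heart, so infarct, border zone and remote muscle cannot be told apart.

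Cytochrome c oxidase, or complex IV, is the last enzyme of the mitochondrial respiratory chain. It passes electrons from cytochrome c to oxygen and pumps protons across the inner membrane, and its catalytic core is encoded by mitochondrial DNA. The surrounding subunits come from nuclear genes, and several of these exist as a form restricted to contractile tissue and a form present in most tissues. In heart the muscle forms of subunits 6a, 7a and 8 take over from the general ones during development, while Cox4i1 remains the main form of subunit 4. Cox8b and Cox7a1 are also known from brown fat.

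Depth ran from 12351525 counts in the shallowest sham library to 19238101 in the deepest 7 d library. Levels are given in CPM, the counts scaled by the TMM-adjusted library total. Changes are log2 fold changes ± SE from edgeR's quasi-likelihood fit, called at a Benjamini-Hochberg adjusted p of 0.05 among 14347 tested genes. The 10 cardiomyocyte markers that were summed (Myh6, Tnnt2, Tnni3, Actc1, Myl2, Myl3, Pln, Ryr2, Mybpc3 and Ttn) gave 119101 to 122161 CPM in sham, 21619 to 26947 at 7 d and 47344 to 77173 at 28 d. All 10 fell at 7 d and 8 of the 10 were lower at 28 d than in sham, beside 35.4% and 25.6% of all tested genes. The 7 fibroblast markers summed to 2200 to 2259 CPM in sham, 35463 to 46519 at 7 d and 6181 to 12156 at 28 d. For the 7 macrophage markers the sums in the same order were 485 to 550, 4323 to 5304 and 878 to 1363 CPM. In bulk tissue fewer cells of a type and less RNA per cell cannot be told apart. Fat genes stood apart in 3 libraries with over 100 CPM of Adipoq (MI 7 d replicate 3 and MI 28 d replicates 1 and 3). Leaving them out leaves 2 hearts at 7 d and replicate 2 alone at 28 d, whose spread is then assumed to be that of the other groups. In that fit 7 of the 9 genes were again lower at 7 d, and the 28 d values rest on 1 heart and do not test whether fat in the samples matters.

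At 7 d the muscle forms fell furthest: Cox7a1 was 20.7-fold, Cox8b 12.5-fold and Cox6a2 10.4-fold below sham. The general forms Cox4i1 and Cox7a2 fell 4.79-fold and 3.78-fold, Cox4i2 2.74-fold and Cox7a2l 1.63-fold, while Cox6a1 and Cox8a did not pass the test. So 7 of the 9 fell, with a median log2 change over all 9 of -1.92. Of all tested genes 74.4% passed at 7 d, 35.4% lower and 39% higher, with a median of 0.06. At 28 d the same 7 were below sham, with a median of -1.17, while 55.1% of all tested genes passed, 25.6% lower and 29.5% higher, with a median of 0.05. Between 7 d and 28 d Cox4i1, Cox6a2, Cox7a1, Cox7a2, Cox8a and Cox8b were higher at the later time, 6 of 9 with a median of 1.06. Of all tested genes 55.2% passed between the times, 29.1% higher and 26.1% lower, with a median of 0.03. The 3 comparisons share their libraries and are not independent of each other.

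**Figure D1:**
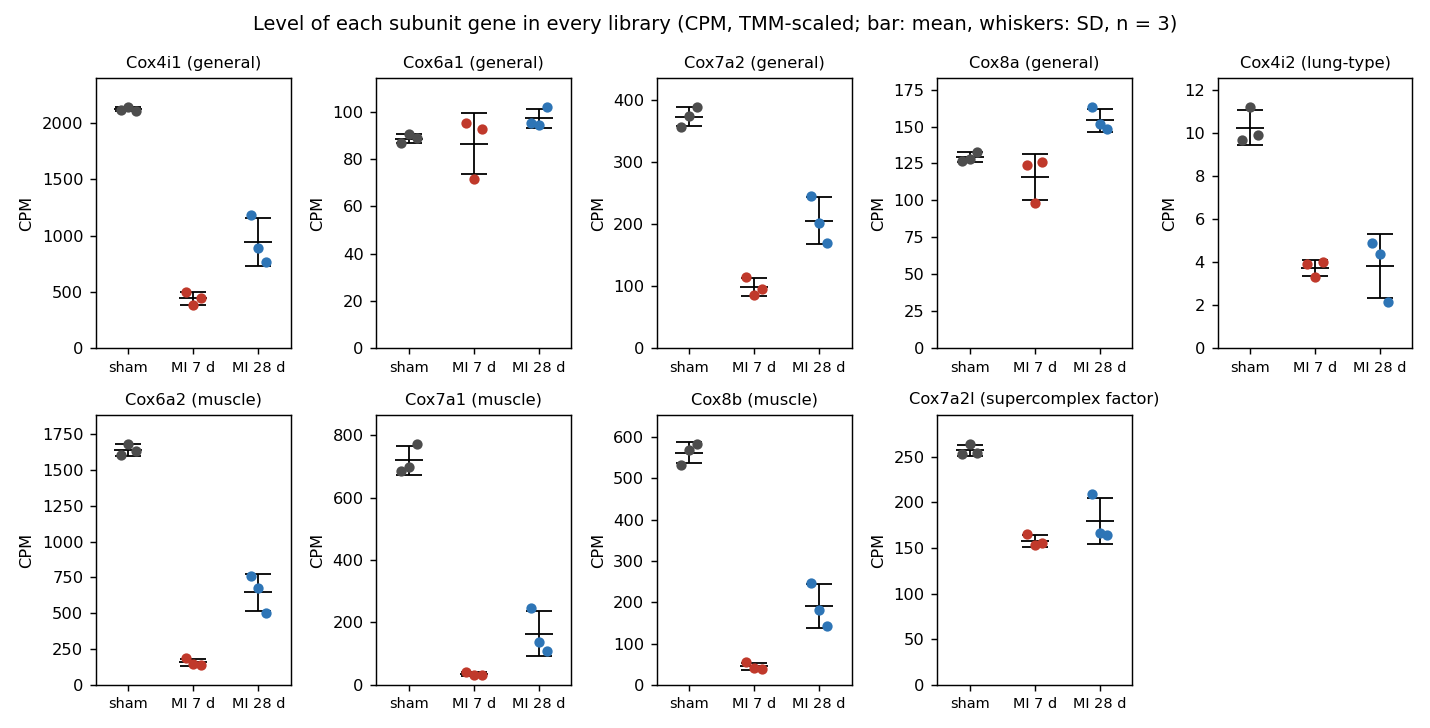
Level of each of the 9 genes in CPM, by group, with a point for each of the 3 hearts and a bar for the mean. Cox6a2, Cox7a1 and Cox8b drop furthest at 7 d and stay between the 7 d and sham levels at 28 d, whereas Cox6a1 and Cox8a stay near their sham level.

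Scaling matters for the genes that moved least. With library size alone in place of TMM factors (0.869 to 0.881 in sham, 1.08 to 1.13 at 7 d), the median of all genes shifted from 0.06 to 0.4 at 7 d and from 0.05 to 0.3 at 28 d. The calls went from 5602 higher and 5074 lower to 7410 and 3587 at 7 d, and from 4233 and 3673 to 6479 and 2278 at 28 d.

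The Cox6a pair encodes a small single-span membrane subunit, and Cox6a2 is its heart and skeletal muscle form. Cox6a2 (chr7:128205435-128206387, minus strand, GRCm38, protein coding) had 1602, 1682 and 1631 CPM in the sham hearts, 185, 145 and 141 CPM at 7 d and 759, 673 and 504 CPM at 28 d. The groups did not overlap, and every 28 d heart lay between the other groups. The log2 change was -3.38 ± 0.17 at 7 d (edgeR adjusted p = 2.47e-07) and -1.34 ± 0.16 at 28 d (adjusted p = 0.000182). From 7 d to 28 d Cox6a2 was 4.1-fold higher, a log2 change of 2.04 ± 0.17 (edgeR adjusted p = 1.3e-05).

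The general form Cox6a1 (chr5:115345642-115348981, minus strand) was close to level across the study. Its libraries gave 86.8, 90.5 and 88.8 CPM in sham, 95.2, 71.8 and 92.8 CPM at 7 d and 95.4, 94.7 and 102 CPM at 28 d. Sham and 7 d overlapped, and all 28 d hearts lay above all sham hearts by a small margin. The log2 change was -0.03 ± 0.1 at 7 d (edgeR adjusted p = 0.776), where with library size alone it was 0.3 and passed (adjusted p = 0.034), and without MI 7 d replicate 2 it was 0.09. At 28 d it was 0.13 ± 0.1 (edgeR adjusted p = 0.3), and with library size alone 0.38 and passed (adjusted p = 0.0156). A copy in the annotation, AC148174.2, matches 496 of the 571 bases of its transcript at 92.9%, so its counts may hold or lose reads shared with that copy.

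The Cox7a pair encodes a single-span subunit at the face where complex IV meets complex III. Its muscle and general promoters and those of the Cox8 pair are shown because in these pairs, whose muscle and general forms moved unequally, both members were in the sequence table. Each line gives the 250 bases before the RefSeq start site on the GRCm38.p6 build, read 5′ to 3′ along the gene's strand, with CG dinucleotides in capitals. The windows are chr7:30183921-30184170 on the plus strand for Cox7a1, chr9:79759854-79760103 on the minus strand for Cox7a2, chr7:140900447-140900696 on the minus strand for Cox8b and chr19:7217617-7217866 on the minus strand for Cox8a.
Cox7a1: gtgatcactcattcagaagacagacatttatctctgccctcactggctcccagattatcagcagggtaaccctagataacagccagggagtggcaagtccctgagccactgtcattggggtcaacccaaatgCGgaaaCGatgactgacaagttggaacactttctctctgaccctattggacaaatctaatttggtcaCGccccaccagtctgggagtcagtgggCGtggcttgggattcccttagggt
Cox7a2: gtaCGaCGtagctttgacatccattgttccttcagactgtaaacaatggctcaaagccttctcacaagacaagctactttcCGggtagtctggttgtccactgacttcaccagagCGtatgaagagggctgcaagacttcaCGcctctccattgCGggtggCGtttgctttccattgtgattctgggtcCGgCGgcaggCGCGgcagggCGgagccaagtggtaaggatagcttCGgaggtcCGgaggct
Cox8b: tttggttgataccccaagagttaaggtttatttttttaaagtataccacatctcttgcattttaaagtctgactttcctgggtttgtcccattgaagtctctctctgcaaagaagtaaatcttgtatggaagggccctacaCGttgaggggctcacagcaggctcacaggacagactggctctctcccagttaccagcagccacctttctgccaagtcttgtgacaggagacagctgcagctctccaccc
Cox8a: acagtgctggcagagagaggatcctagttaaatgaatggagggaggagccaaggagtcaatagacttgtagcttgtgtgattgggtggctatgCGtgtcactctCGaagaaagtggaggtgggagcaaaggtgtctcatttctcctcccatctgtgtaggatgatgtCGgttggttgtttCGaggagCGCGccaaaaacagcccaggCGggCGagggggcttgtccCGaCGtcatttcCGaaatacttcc

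The muscle windows hold few CG dinucleotides, 4 in Cox7a1 and 1 in Cox8b, against 14 in Cox7a2 and 11 in Cox8a. Over all 32851 promoters in the RefSeq table the median was 6, and 44.4% held 4 or fewer. Of the 9 genes 6 were in that table (Cox4i1, Cox4i2 and Cox6a2 were not), and the other 2 windows, of Cox6a1 and Cox7a2l, held 26 and 13. Base composition differed less, with 51.2% and 47.2% G or C in Cox7a1 and Cox8b and 54.8% and 52.8% in Cox7a2 and Cox8a, where the median of all promoters was 52.4%.

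Letters of known elements were searched on both strands of the same windows. The GC box GGGCGG, bound by Sp1-type factors, was found in the windows of Cox7a2, Cox7a2l and Cox6a1 and in 32.7% of all promoters, and its letters are not in those of Cox7a1, Cox8a or Cox8b. The E-box CANNTG was found in the Cox7a1, Cox7a2, Cox7a2l, Cox8a and Cox8b windows and in 66.2% of all promoters. The Ets letters CCGGAAG (6.91% of all promoters) and the NRF1 core CGCATGC (3.02%) were each found in the Cox6a1 window alone. The letters of the oestrogen-related receptor element AAGGTCA (4.08%), of TATAAA (12.4%) and of the MEF2 site (2.92%) are in none of the 6 windows. ACGTG, the only form of the hypoxia response core that was searched, was found in the Cox8b window and in 16.6% of all promoters. Other forms of that core were not looked for in any window.

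Cox7a1 (chr7:30184144-30186078, plus strand) gave 687, 699 and 772 CPM in sham, 41.4, 31.4 and 31.3 CPM at 7 d and 245, 136 and 109 CPM at 28 d. No group overlapped another, and MI 28 d replicate 1 stood well above the other 28 d hearts. It had the largest fall of the 9 genes at both times, with a log2 change of -4.37 ± 0.3 at 7 d (edgeR adjusted p = 1e-06) and -2.14 ± 0.27 at 28 d (adjusted p = 0.000217). From 7 d to 28 d it was 4.71-fold higher (log2 2.24 ± 0.27, edgeR adjusted p = 0.000118). At 28 d its mean of 163 ± 72.1 CPM was 4.4-fold below sham by the fit.

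Cox7a2 (chr9:79755361-79759878, minus strand), the general form, gave 357, 374 and 388 CPM in sham, 115, 85.4 and 95.5 CPM at 7 d and 245, 202 and 169 CPM at 28 d. All its groups were separate, in the order sham, 28 d, 7 d from the highest down. Its log2 change was -1.92 ± 0.15 at 7 d (edgeR adjusted p = 2.28e-06), -0.86 ± 0.15 at 28 d (adjusted p = 0.00102) and 1.06 ± 0.15 from 7 d to 28 d (adjusted p = 0.000265).

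Cox7a2l, also called SCAF1, is related to the Cox7a pair and joins complex IV to complex III in supercomplexes rather than serving as the usual 7a subunit. Mice of C57BL/6 strains are known to carry a shortened form of its protein. Its libraries gave 253, 264 and 254 CPM in sham, 165, 153 and 155 CPM at 7 d and 209, 166 and 164 CPM at 28 d. All MI hearts lay below all sham hearts, while the 7 d and 28 d groups overlapped. The log2 change was -0.71 ± 0.1 at 7 d (edgeR adjusted p = 0.000142) and -0.52 ± 0.1 at 28 d (adjusted p = 0.00223), and the difference of 0.19 ± 0.1 between the times did not pass (adjusted p = 0.14). A copy named Gm6969 matches 342 of its 1076 transcript bases at 98%, so its counts may hold or lose reads shared with that copy.

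The Cox8 pair encodes a small subunit made of a single membrane helix. Cox8b, expressed in mouse heart, skeletal muscle and brown fat, is a gene that humans no longer have in working form. Cox8b (chr7:140898945-140900446, minus strand) gave 533, 569 and 583 CPM in sham, 54.8, 41.3 and 38.5 CPM at 7 d and 247, 182 and 143 CPM at 28 d. The groups were separate, again with the 28 d hearts in between. The log2 change was -3.64 ± 0.21 at 7 d (edgeR adjusted p = 4.68e-07) and -1.56 ± 0.2 at 28 d (adjusted p = 0.000223). From 7 d to 28 d it was 4.24-fold higher (log2 2.08 ± 0.2, edgeR adjusted p = 3.38e-05).

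Cox8a (chr19:7215153-7217616, minus strand), the general form, gave 127, 128 and 133 CPM in sham, 124, 98.2 and 126 CPM at 7 d and 163, 152 and 148 CPM at 28 d. All 7 d hearts lay below the sham hearts, replicates 1 and 3 only just and replicate 2 further. The 28 d hearts lay above both other groups. The log2 change at 7 d was -0.16 ± 0.1 (edgeR adjusted p = 0.181), and with library size alone it was 0.18 (adjusted p = 0.119). At 28 d it was 0.25 ± 0.1 (edgeR adjusted p = 0.0557), which passed under several alternatives, among them the fit of only the libraries compared (0.26, adjusted p = 0.0152) and the fit without MI 7 d replicate 2 (0.25, adjusted p = 0.014). From 7 d to 28 d Cox8a was 1.33-fold higher (log2 0.41 ± 0.1, edgeR adjusted p = 0.00655).

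Subunit 4 contributes to the regulation of the enzyme by ATP. Cox4i1 (chr8:120668222-120674207, plus strand) was the most abundant of the 9 in counts, with 2119, 2141 and 2108 CPM in sham, 496, 384 and 450 CPM at 7 d and 1184, 889 and 764 CPM at 28 d. Its groups were separate, and sham hearts differed from each other by far less than the 28 d hearts did. On the log2 scale it changed by -2.26 ± 0.17 at 7 d (edgeR adjusted p = 1.65e-06), -1.17 ± 0.16 at 28 d (adjusted p = 0.00036) and 1.09 ± 0.16 from 7 d to 28 d (adjusted p = 0.000374). It shares 154 exon bases with Emc8 on the other strand, a gene with 229 to 512 counts per library, and without a known strand setting reads from these bases cannot be told apart. Cox6a2 shares 70 bases with Itgad in the same way, but Itgad had only 3 to 10 counts.

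Cox4i2 is the form known from lung and other oxygen-sensing tissue, and it was rare in these hearts. Its level was 9.68, 11.2 and 9.89 CPM in sham, 3.9, 3.32 and 3.99 CPM at 7 d and 4.91, 4.4 and 2.14 CPM at 28 d, from 37 to 122 counts per library. All MI hearts lay below all sham hearts, and the lowest value of all was MI 28 d replicate 3. Its log2 change was -1.46 ± 0.26 at 7 d (edgeR adjusted p = 0.000652) and -1.43 ± 0.27 at 28 d (adjusted p = 0.00166). Between the times it was 0.03 ± 0.27 (edgeR adjusted p = 0.939), and its sign turned under several alternatives.

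**Figure D2:**
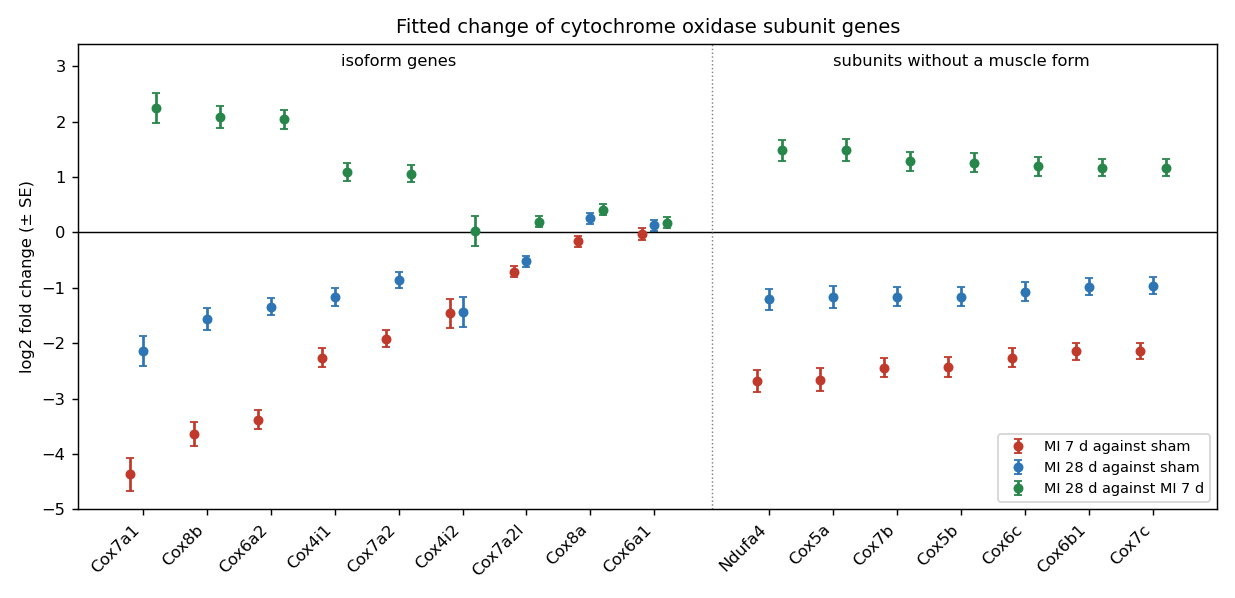
Log2 fold change of each of the 9 genes (left) and of the 7 nuclear subunits without a muscle form (right) from edgeR's fit. Bars are 1 SE, and the comparisons are MI 7 d against sham, MI 28 d against sham and MI 28 d against MI 7 d. The muscle forms lie at -3.38 to -4.37 at 7 d, Cox6a1 and Cox8a lie near 0, and Cox4i2 has nearly the same fall at both times.

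Markers of vessel cells were set beside Cox4i2. The 6 endothelial markers summed to 1831 to 1893 CPM in sham, 776 to 894 at 7 d and 545 to 887 at 28 d. Among them 4 were lower at 7 d, where Egfl7 and Emcn did not pass, and 5 were lower at 28 d. Beside these and the following counts, 35.4% of all tested genes were lower and 39% higher at 7 d. At 28 d 25.6% were lower and 29.5% higher. Kdr had the largest endothelial change, with log2 -2.68 ± 0.14 at 7 d and -2.04 ± 0.14 at 28 d. It was higher at 28 d than at 7 d (0.64 ± 0.13), which no other endothelial marker was by the test. The 8 pericyte markers summed to 1921 to 1978, 1041 to 1185 and 620 to 1227 CPM. In sham this sum was carried mostly by Rgs5 (mean 869 CPM) and Abcc9 (633 CPM). By 7 d Pdgfrb (418 CPM) and Rgs5 (391 CPM) were the largest, and Abcc9 was at 76 CPM. At 7 d 5 of the 8 fell and 2 were higher, Pdgfrb (1.27) and Cspg4 (0.65), and at 28 d 4 were lower and Cspg4 (0.51) was higher. The 5 smooth muscle markers went the other way, with sums of 481 to 536 CPM in sham, 1254 to 1508 at 7 d and 688 to 820 at 28 d. Of these 3 were higher and 1, Smtn, was lower at 7 d, and 4 were higher and Smtn lower at 28 d. Not all of the markers in the endothelial and pericyte lists fell. For their sums, as for Cox4i2, the 7 d and 28 d libraries overlapped and lay below all sham libraries. The pericyte sum leans on Abcc9, which unlike Cox4i2 was higher at 28 d than at 7 d (log2 1.29 ± 0.26). Between these times 1 pericyte marker was higher and 2 were lower. Whether each marker is specific to its cell type in these hearts was not tested. The part of these cells in the Cox4i2 result was not tested. The genes whose log2 CPM was most like that of Cox4i2 over the 9 libraries, of 12067 searched, were Tek (Pearson r = 0.9924), the angiopoietin receptor of endothelium, Tie1 (0.9895), a related endothelial receptor, and Adipor1 (0.9889), an adiponectin receptor. Such correlations are a description, since the libraries share the group differences. Of the factors known at the oxygen-responsive element of Cox4i2, Chchd2 fell by 1.68 ± 0.15 at 7 d on the log2 scale and Rbpj was higher by 0.72 ± 0.09, both past edgeR's threshold, while Cxxc5 did not pass.

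Compared within each library, which leaves scaling out, the muscle form lost ground to the general form in all of the 6a, 7a and 8 pairs. The log2 ratio of Cox6a2 to Cox6a1 counts was 4.21 ± 0.01 (SD, n = 3) in sham, 0.86 ± 0.22 at 7 d and 2.71 ± 0.36 at 28 d. For Cox8b to Cox8a it was 2.12 ± 0.04, -1.38 ± 0.29 and 0.27 ± 0.32, and for Cox7a1 to Cox7a2 0.95 ± 0.05, -1.51 ± 0.09 and -0.4 ± 0.35. The groups did not overlap in any of these pairs.

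At 7 d the Cox8b to Cox8a ratio was 11.3-fold lower than in sham, the Cox6a2 to Cox6a1 ratio 10.2-fold and the Cox7a1 to Cox7a2 ratio 5.48-fold. At 28 d they were 3.6-fold, 2.82-fold and 2.54-fold below sham. For each of these 3 pairs an exact permutation test over the 3 groups gave p = 0.00357, the smallest it can give with 1680 arrangements, and 0.00476 after adjustment over the 4 pairs. A pairwise exact permutation test of 3 hearts against 3 cannot go below 0.1, which is the value it gave for each pair of groups in these pairs.

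The subunit 4 pair moved the other way at 7 d. The log2 ratio of Cox4i2 to Cox4i1 was -7.69 ± 0.1 in sham, -6.88 ± 0.09 at 7 d and -8.0 ± 0.41 at 28 d, so the oxygen-regulated form was 1.75-fold higher relative to Cox4i1 at 7 d than in sham. The 28 d hearts overlapped the sham hearts. The exact permutation test over the 3 groups gave p = 0.0107, also after adjustment over the 4 pairs. Without the Adipoq-rich libraries, with 1 heart left at 28 d, the 7 d difference was 0.78 and the exact permutation p was 0.0667, so the call was lost.

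Divided by exon length, these ratios become shares of a pair's transcripts. Cox6a2 made up 95 ± 0.0285% of the Cox6a pair in sham, 65.2 ± 3.51% at 7 d and 86.9 ± 2.9% at 28 d, so it remained the larger part in every library. Cox8b went from 88.2 ± 0.294% of its pair to 39.9 ± 4.75% and 67.3 ± 4.91%, and Cox7a1 from 77.3 ± 0.565% to 38.3 ± 1.45% and 57.1 ± 5.84%. In all 7 d hearts the general forms Cox7a2 and Cox8a were therefore the larger part of their pairs. Cox4i2 was 0.942 ± 0.0689% of the Cox4i pair in sham, 1.64 ± 0.101% at 7 d and 0.774 ± 0.21% at 28 d. With the length of the principal transcript in place of all exons the Cox4i2 share was 0.502%, 0.875% and 0.412%. The other shares were lower too, with Cox6a2 at 93.9%, 60.3% and 84.4%. Cox8b was at 86.9%, 37.1% and 64.7%, and Cox7a1 at 76.4%, 37.1% and 55.9%. Each share kept its order over the groups.

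**Figure D3:**
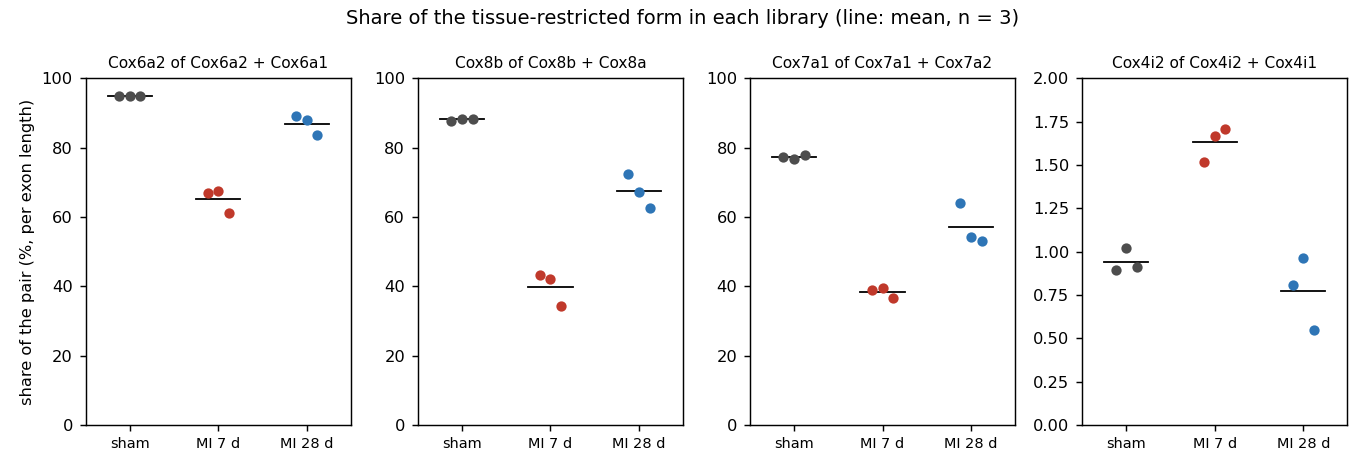
Share of the muscle or oxygen-regulated form in the exon-length-corrected level of its pair, in percent, with a point for each heart and a bar for the mean, by group. Cox7a1 and Cox8b lie under 50% in every 7 d heart, while Cox6a2 stays above it in all hearts and Cox4i2 stays below 2%.

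The sum of both members of a pair also fell far below sham. The Cox7a pair together went from 1739 CPM per kb of exon in sham to 169 at 7 d, 9.73% of the sham level, and to 523 at 28 d, 30.1%. The Cox6a sum was at 14% of sham at 7 d and 42.9% at 28 d, the Cox8 sum at 17.6% and 44%, and the Cox4i sum at 21% and 44.5%. The Cox7a sum was the lowest relative to sham at both times.

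The order of the 9 genes by level per kb changed as well. In sham it ran from Cox6a2 (2409 CPM per kb) and Cox8b (1560) over Cox4i1 (1370) and Cox7a1 (1344), which overlapped, to Cox7a2 (395), Cox8a (209), Cox7a2l (174), Cox6a1 (126) and Cox4i2 (13). At 7 d Cox4i1 (286) and Cox6a2 (231) overlapped at the top, followed by Cox8a (187). The next 3, Cox8b (125), Cox6a1 (123) and Cox7a2l (107), each overlapped the following gene, Cox7a2 came after at 104, and Cox7a1 had dropped to 64.9 CPM per kb, above Cox4i2 alone. At 28 d Cox6a2 (949), Cox4i1 (610), Cox8b (529) and Cox7a1 (305) were again on top in the means, with Cox8a at 249 CPM per kb and overlap between neighbours.

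The 7 nuclear subunits that have no muscle form here, Cox5a, Cox5b, Cox6b1, Cox6c, Cox7b, Cox7c and Ndufa4, gave a reference for the nuclear part of the enzyme. All 7 fell at 7 d, beside 35.4% of all tested genes, whose median was 0.06. The log2 changes of the 7 ran from -2.69 (Ndufa4, the subunit that was first assigned to complex I) to -2.14 (Cox7c), median -2.43. Cox6a2, Cox7a1 and Cox8b lay below that range, Cox4i1 at -2.26 lay inside it, and the other 5 genes lay above it. At 28 d all 7 were again below sham, beside 25.6% of all tested genes, whose median was 0.05. The 7 ran from -1.21 to -0.96 with a median of -1.16. Cox4i1 was inside this range, and Cox4i2 lay below it with the muscle forms. From 7 d to 28 d, where 29.1% of all tested genes were higher and the median was 0.03, all 7 were higher, by 1.17 to 1.49. Cox6a2, Cox7a1 and Cox8b had a larger rise than any of them and the other 6 genes a smaller difference.

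Set against the mean log2 CPM of the 10 cardiomyocyte markers in the same library, the muscle forms still stood lower after infarction. That mean was 13.09 ± 0.01 in sham, 10.59 ± 0.15 at 7 d and 12.14 ± 0.37 at 28 d. Relative to it Cox7a1 was lower by a log2 difference of -1.88 at 7 d and -1.27 at 28 d, Cox8b by -1.16 and -0.64, and Cox6a2 by -0.89 and -0.41. Cox4i1, the general form with the highest counts, differed by 0.23 and -0.24. For each of these 4 genes the exact permutation test over the 3 groups gave p = 0.00357, the smallest possible, not adjusted over the 9 genes tested. Cox4i2, Cox6a1, Cox7a2l and Cox8a had the same p in that test, so it does not set the muscle forms apart.

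The other genes were higher relative to the markers at 7 d: Cox7a2 by 0.57 (exact permutation p over the groups 0.0179, and 0.05 without the Adipoq-rich libraries), Cox4i2 by 1.07, Cox7a2l by 1.79, Cox8a by 2.33 and Cox6a1 by 2.45. At 28 d Cox6a1 and Cox8a were still 1.08 and 1.2 above the sham ratio, Cox7a2 at 0.07 was near it and Cox4i2 at -0.52 was below it. The markers themselves differed widely, with log2 changes of -3.62 (Tnni3, cardiac troponin I) to -1.32 (Mybpc3, a myosin-binding protein) at 7 d. Cox7a1 lay below all 10 at both times, Cox8b at -3.64 lay beside Tnni3, and Cox6a2 lay inside the range.

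**Figure D4:**
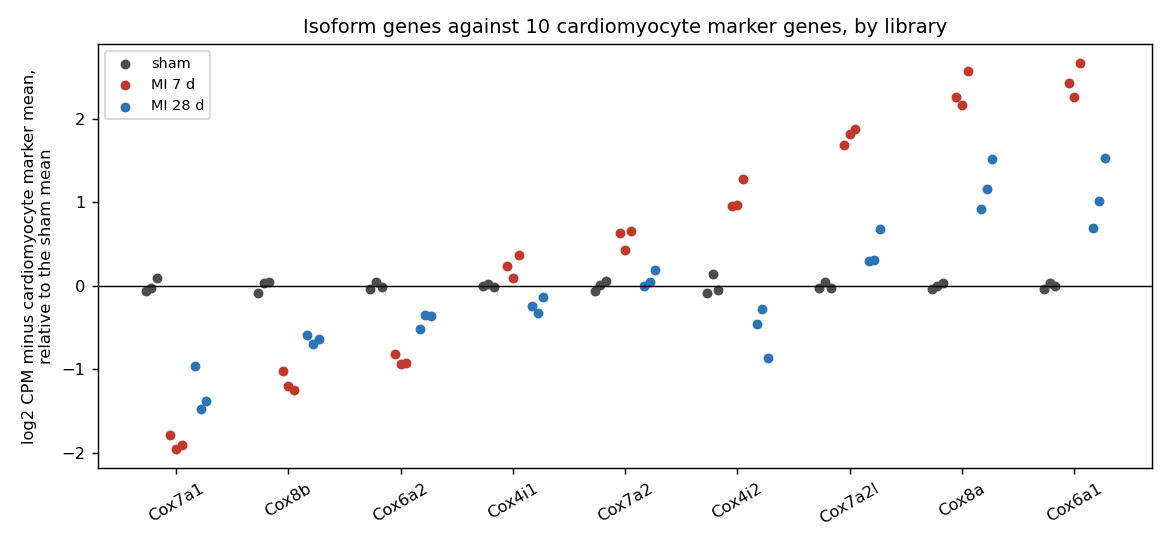
Log2 level of each of the 9 genes relative to the mean of 10 cardiomyocyte markers in the same library, as a difference from the sham mean, with a point for each heart. Cox7a1, Cox8b and Cox6a2 lie below 0 at 7 d, Cox4i1 lies near 0, and Cox6a1 and Cox8a lie more than 2 log2 units above it.

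Within the 28 d group the hearts kept nearly the same order from gene to gene. Replicate 1 had the highest and replicate 3 the lowest CPM of Cox4i1, Cox4i2, Cox6a2, Cox7a1, Cox7a2, Cox7a2l, Cox8a and Cox8b, while Cox6a1 was highest in replicate 3. The mean log2 CPM of the cardiomyocyte markers had the same order, with 12.5 in replicate 1, 12.16 in replicate 2 and 11.76 in replicate 3. Its part in the spread of the 9 genes was not tested.

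Markers of the other tissues known to use the muscle forms were low. Of brown fat genes, Ucp1, the uncoupling protein that defines it, had 0 to 3 counts per library, and the 4 brown fat markers summed to 41.2 to 47 CPM in sham, 11.6 to 17.2 at 7 d and 25.4 to 34.9 at 28 d, mostly from Cidea. The 7 skeletal muscle markers summed to 2.11 to 3.23, 10.1 to 15.7 and 3.19 to 4.28 CPM. White fat markers reached 1434 CPM in a 7 d library and 1027 CPM in a 28 d library but were at 5.23 to 9.2 CPM in sham. Without the 3 libraries rich in Adipoq the log2 change of Cox7a1 was -4.31 at 7 d, from 2 hearts, and -2.42 in the 1 heart left at 28 d.

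Genes that serve complex IV fell along with its subunits. Of 27 genes for its assembly 24 were tested, and 21 of them fell at 7 d (median -1.4, beside 35.4% of all tested genes and a median of 0.06), the largest falls being those of Taco1 (-2.68), which activates translation of a core subunit, and Cox10 (-2.55), which makes the heme A precursor. At 28 d 19 of the 24 were below sham (median -0.74, beside 25.6% of all tested genes), and 18 were higher at 28 d than at 7 d (median 0.72, beside 29.1% and a median of 0.03). Cycs, cytochrome c itself and the electron donor of the enzyme, fell by 2.66 ± 0.21 at 7 d and by 1.18 ± 0.2 at 28 d on the log2 scale. The symbols mt-Co1, mt-Co2 and mt-Co3 were not found in the matrix, so the mitochondrially encoded core subunits were not analysed here. Of the testis forms, Cox8c had 0 counts in all libraries, Cox7b2 at most 1, and Cox6b2 was lower at 28 d than at 7 d (-1.26 ± 0.38, edgeR adjusted p = 0.0182).

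Among 16 nuclear regulators of respiratory genes 10 fell and 3 were higher at 7 d (median -1.0), where 35.4% of all tested genes were lower and 39% higher. Ppargc1a, the coactivator PGC-1alpha that raises mitochondrial gene expression, fell by 2.99 ± 0.17 on the log2 scale, and Esrra, the nuclear receptor it acts with, by 2.0 ± 0.16. The 3 that were higher were Pprc1 (0.5), Gabpb1 (0.3) and Nrf1 (0.26). At 28 d 9 of the 16 were below sham (25.6% of all tested genes), with Ppargc1a at -0.95 and Esrra at -0.92, and Pprc1 (0.6) was above it. From 7 d to 28 d 9 were higher (29.1% of all tested genes), with Ppargc1a at 2.04.

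The genes whose pattern over the 9 libraries was most like that of each member were found in the same way as for Cox4i2. For Cox4i1 they were Ndufb8, Ndufs3 (both subunits of complex I) and Uqcrh (of complex III), with Pearson r of 0.9995, 0.9995 and 0.9994. For Cox6a2 they were Pygm, muscle glycogen phosphorylase, Sgca, a sarcoglycan, and Myl2, the ventricular myosin light chain, and for Cox8b Cisd1, Tnni3 and Myl2, all at 0.9994 or 0.9995. For Cox7a1 they were Ptcd3, Ndufb2 and Ndufb10, the first of which serves mitochondrial translation. Cox6a1 had no gene over 0.95, its nearest being Fcf1 at 0.9313, and Cox8a had 1, Babam2 at 0.961. For Cox7a2 the nearest were Pyurf, Ndufc1 and Cycs (0.9993, 0.9993 and 0.9992), and for Cox7a2l Mrps14 (0.9968), Tmem147 (0.9954) and Amacr (0.9943). By comparison 1881 genes passed 0.95 with Cox6a2, 1977 with Cox7a1 and 1934 with Cox8b. The general forms Cox4i1 and Cox7a2 had 1940 and 1893, so such numbers do not set the muscle forms apart. Cox7a2l had 840 and Cox4i2 had 93.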

How the data were processed

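RNA from 9 mouse hearts, 3 in each of 3 groups, was sequenced in bulk. The KAPA RNA hyperPrep kit turned the total RNA into libraries, per the labels' protocols. Trim Galore, STAR and featureCounts were used with the mm10 build, per the submitters' processing notes, which give no versions. No source used here states the annotation, the strand setting or the handling of reads with several matches. The values deposited by the authors are raw whole-number counts per gene symbol, not normalized.

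From these counts, genes were filtered with filterByExpr (minimum count 10, minimum total 15), scaled by TMM and fitted over all 9 libraries with a mean for each group in edgeR 4.0.16 (R 4.3.3). The 3 comparisons were tested two-sided by quasi-likelihood, with each SE computed from the log2 fold change and its F statistic (the absolute change divided by the root of F). Ratios of counts within a pair used a prior count of 0.5, and log2 levels relative to the cardiomyocyte markers used a prior count of 2. Both were tested across the 3 groups with an exact permutation test of the one-way F. Levels per kb used merged exon lengths of GENCODE on GRCm38 (the mm10 assembly), which also gave the gene coordinates. Near copies were found with blastn 2.17.0 at 90% identity or more over at least 100 bases. Likeness was searched among tested genes whose mean log2 CPM reached 1, without symbols of the Gm and Rik forms and without the 9 genes. The scripts were tested on simulated counts.

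The 9 genes, the gene lists and the tests were chosen with earlier results of these data known. The rule for names took the 9 genes in every comparison and, from each list, up to 2 largest changes, members against the list's direction and its head genes. Alternatives were DESeq2 1.42.0, its size factors, library size alone, limma voom 3.58.1 with group weights, no filter, a stricter filter, fits of only the libraries compared, a replicate block, leaving out each library and leaving out the Adipoq-rich libraries. The length of the principal transcript for the shares was added after seeing the data. The labels give no batch. Residual variation differed widely between groups, with a biological coefficient of variation of 2.73% in sham, 17% at 7 d and 24.2% at 28 d. The edgeR fit used a shared estimate of the spread for all groups. Its SE and p may therefore be too small for the comparison of 28 d with 7 d.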

Additional observations from a re-analysis of the deposited data

Results flagged for a closer look

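For 6 of the 9 genes the change against sham differed between 7 d and 28 d, by the edgeR test of the difference itself, which is the comparison of 28 d with 7 d because both changes use the same sham hearts. Of all tested genes 55.2% passed that test in either direction, and the count of 6 is near that share. All 6 were higher at 28 d, beside 29.1% of all tested genes. The difference on the log2 scale was 2.24 for Cox7a1, 2.08 for Cox8b, 2.04 for Cox6a2, 1.09 for Cox4i1, 1.06 for Cox7a2 and 0.41 for Cox8a, each higher at 28 d. For Cox8a the difference joins a 7 d value below sham and a 28 d value above it, neither of which passed against sham.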

How the results depend on the processing

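The 7 falls against sham at each time and the 6 rises from 7 d to 28 d passed under every alternative run. With library size alone 1 of the 9 genes was higher than sham at 7 d (Cox6a1) and 2 at 28 d (Cox6a1 and Cox8a), and over all genes 6479 were higher and 2278 lower at 28 d. At 28 d 1 gene, Cox8a, was higher than sham with voom, with only the libraries compared, with the stricter filter and without MI 7 d replicate 2, a range of 0 to 1 when single libraries were left out. The 7 d change turned sign for Cox6a1 (0.3 with library size alone, 0.09 without MI 7 d replicate 2, -0.11 to 0.09 over all libraries left out) and Cox8a (0.18 with library size alone). The 28 d against 7 d change of Cox4i2 became -0.07 with library size alone and with voom, -0.01 with only the libraries compared and with the replicate block, and -0.2, -0.09 and -0.05 (range -0.2 to 0.32 over all libraries left out) without MI 28 d replicate 1, MI 28 d replicate 2 and MI 7 d replicate 2. Without the Adipoq-rich libraries, which leaves 1 heart at 28 d, the difference of the Cox4i2 to Cox4i1 ratio was 0.78 (exact permutation p = 0.0667) and that of Cox7a2 relative to the markers 0.53 (exact permutation p = 0.05).

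Correlations of deviations ran from -0.0909 to 0.304 for same-numbered hearts and from -0.582 to 0.454 for differently numbered hearts. The labels state no pairing, and with 3 hearts a group these correlations cannot settle whether there was one. With the replicate block 7, 7 and 6 of the 9 genes passed in the 3 comparisons, as without it, and over all genes 5554 were higher and 5029 lower at 7 d. With 3 hearts a group a difference as small as that of Cox8a at 28 d lies at the limit of what the test resolves, and Cox4i2 rests on 37 to 122 counts per library.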
